A study of Mus musculus with 12 samples.

Results

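The genes described here encode the protein subunits of the cytosolic ribosome. They were chosen by name: a symbol of the form Rpl or Rps followed by a number and the letters a, x, l or y where present, or Rpsa, Rplp0, Rplp1 or Rplp2, with at least 1 probe set annotated to that symbol alone. The rule found 46 of the 18193 genes represented on the array, 24 of the large and 22 of the small subunit. Each gene was represented by its brightest such probe set over all arrays. Another 29 symbols of the same form, Rplp1 among them, were listed only beside other symbols and were not analysed by gene.

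RNA of primary mouse hepatocytes was hybridised to 12 Affymetrix mouse arrays, 3 in each of 4 groups, and the series' design text gives 1 mouse for each array. The cells were cultured for 48 h in a medium that held dimethyl sulfoxide and dexamethasone in every group, and then received 10 nM TCDD or dimethyl sulfoxide as vehicle for 6 h. TCDD is a dioxin that activates the aryl hydrocarbon receptor (AHR), a transcription factor. The groups were human AHR with TCDD, human AHR with vehicle, wild type with TCDD and wild type with vehicle. The human AHR strain, on a B6 background, carries the floxed allele Ahrtm3.1Bra together with 2 transgenes, Alb-cre, which drives Cre from the Alb promoter, and Ttr-AHR, which drives human AHR from the Ttr promoter. Both promoters are active in hepatocytes. The wild type strain was C57BL6/J, with the mouse receptor. The labels give no ages and no dates of culture, so genotype cannot be told apart from the day on which cells were prepared.

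A cytosolic ribosome joins a small subunit, which reads the mRNA, to a large subunit, which forms the peptide bond. Most of its proteins are made in equal amounts, and the encoding mRNAs begin with a run of pyrimidines, the 5′ terminal oligopyrimidine (TOP) motif, which places their translation under control of the mTOR pathway. In hepatocytes, which secrete large amounts of plasma protein, these mRNAs belong to the most abundant ones. Because they are many, bright and usually stable, they also show how arrays were put on one scale.

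All values below are signals, the deposited intensities rescaled to the same trimmed mean of 150 on each array, or log2 of that signal plus 16. Hepatocyte markers were bright: all 7 measured markers averaged over 100, and their summed signal ran from 42021 to 52888 in human AHR TCDD arrays, 41150 to 52827 in human AHR vehicle arrays, 43934 to 51553 in wild type TCDD arrays and 41029 to 47680 in wild type vehicle arrays. Of the stellate, endothelial and lymphocyte markers, 0 of 10, 0 of 7 and 0 of 4 averaged over 100, and of the cholangiocyte markers 1 of 5 did (Krt19). The X-silencing transcript Xist read 2952 and 3085 in the replicate 2 arrays of wild type TCDD and wild type vehicle cells and at most 29.3 on each of the other arrays, while the Y-linked Eif2s3y read 0.42 and 4.7 on those arrays and at least 452.7 on the others. These 2 arrays thus held the pattern of female cells. They carry the same replicate number, and whether they came from the same mouse was not tested. Counts and medians over gene lists that rest on wild type cells are mostly given with and without them. Values over all genes, subunits, scalings, promoters and single genes are given with them. Tiparp, a direct AHR target, read 3479 to 3609 in human AHR TCDD arrays against 1327 to 1403 in human AHR vehicle arrays, and 2534 to 3324 in wild type TCDD arrays against 910.9 to 1402 in wild type vehicle arrays. Cyp1a1, the AHR target most used as its readout, had signals of 6624, 4004 and 6939 in human AHR TCDD arrays against 81.9, 63.0 and 60.5 in human AHR vehicle arrays. In wild type cells it had 124.9, 2518 and 64.9 in TCDD arrays against 25.3, 24.0 and 18.5 in vehicle arrays. All TCDD arrays lay above the vehicle arrays of their genotype, but among the wild type ones only the Xist-high replicate 2 came near the human AHR level. The mouse Ahr probe set read 192.9 to 224.8 in human AHR TCDD arrays and 192.8 to 235.9 in human AHR vehicle arrays. It read 243.3, 442.3 and 223.4 in wild type TCDD arrays and 261.3, 616.7 and 244.7 in wild type vehicle arrays, so only the Xist-high arrays stood clearly apart. No source used here places the probe set relative to the floxed exons, and the genotype labels could not be checked with it.

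Most of the ribosomal protein genes lay near the top of the signal range. A mean signal above 4000, a limit set after the values had been seen, was reached by 34 of the 46 genes and by 216 of the other genes. The 34, 17 of each subunit, averaged between 5348 (Rps9) and 14150 (Rps29), and no array took any of them below 4747 or above 16022. The other 12 are called dim here. Of these, Rps4l averaged 1406, Rpl37 averaged 1262, and 10 lay below 300. Only Rpl39l (7.01), Rpl3l (3.23) and Rps16 (0.576) lay below the median gene, at 41.5. Rpl39l and Rpl3l are paralogs known for expression in testis and in striated muscle.

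**Figure D1:**
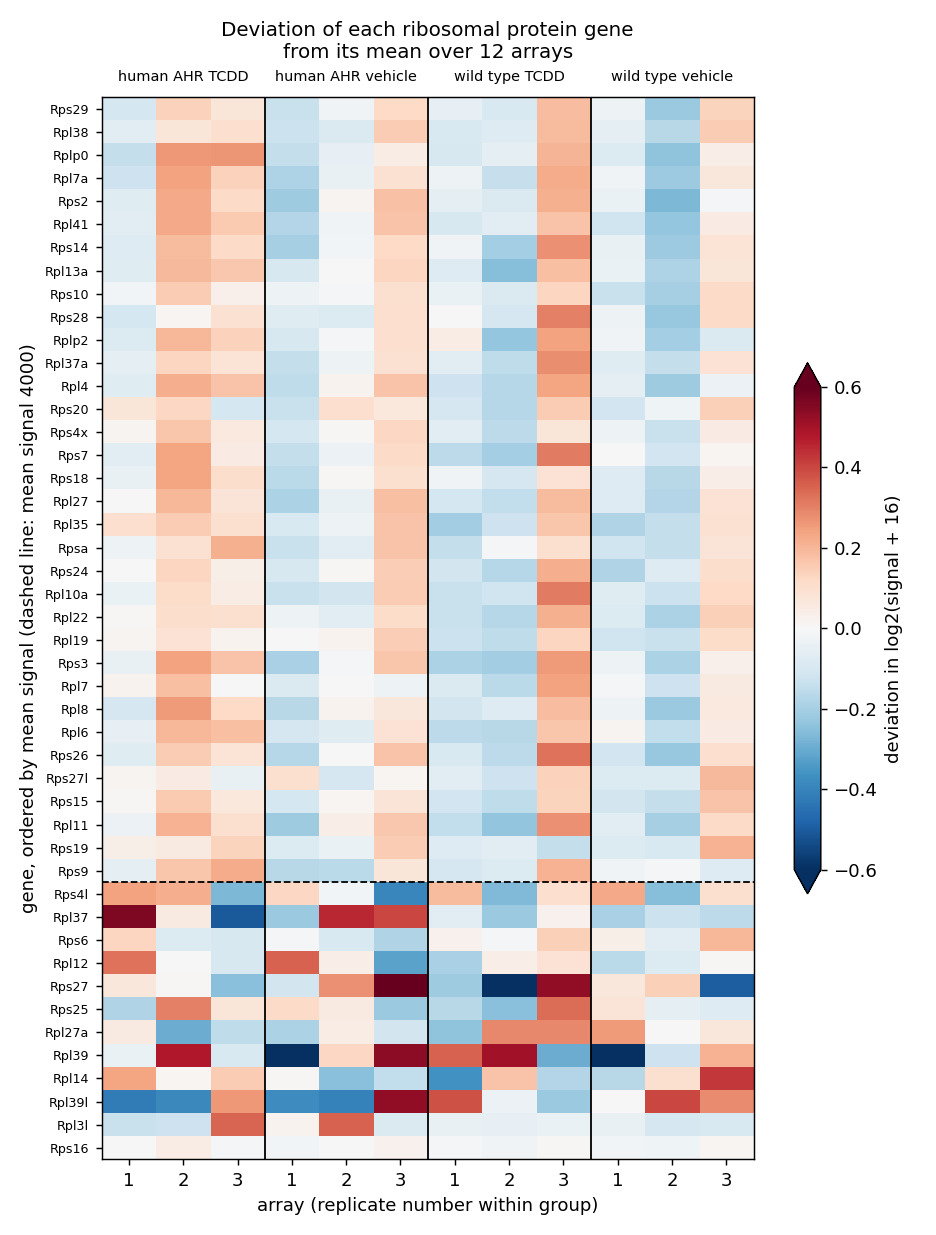
Deviation of log2(signal + 16) of each of the 46 ribosomal protein genes (rows, brightest at the top) from its own mean over 12 arrays (columns, by group and replicate number). Above the dashed line, the 34 genes with a mean signal over 4000 shift together from array to array, and below it the 12 other genes vary separately. Deviations beyond 0.6 in size take the end colours.

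A low signal here was read at the probe set that carried the symbol alone, and whether it reflects a low transcript level was not tested. For 9 of the 12 dim genes the annotation holds another probe set that lists the same symbol beside a pseudogene or a related locus, and the brightest of these averaged between 5721 (Rps25) and 11648 (Rps6) in all 9. Rps6, the small subunit protein that S6 kinase phosphorylates, had signals of 258, 220 and 218 in human AHR TCDD arrays, 233, 219 and 204 in human AHR vehicle arrays, 238, 233 and 261 in wild type TCDD arrays and 240, 222 and 271 in wild type vehicle arrays at its own probe set. Rps16 read between 0.3 and 1.1 on every array at its own probe set, while a probe set that also lists an Rps16 pseudogene averaged 11409. Such a shared probe set names no gene, so its value is not taken as that of Rps16. Rpl3l, Rpl39l and Rps4l have no such second probe set. A symbol listed alone does not show that a probe set reads only that gene. Of the probe sets chosen to stand for the genes, 14 have names ending in _x_at and 2 in _s_at. Whether any chosen probe set also binds transcripts of pseudogenes or related loci was not tested, so bright values may not be specific to the named gene.

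The first question was what TCDD did in cells with the human receptor. In human AHR cells 40 of the 46 genes were above their vehicle mean. The median log2 change was 0.08 and the range -0.45 to 0.26. Over all genes tested, 46.9% lay above vehicle and the median was -0.01. Of the 216 other genes with a mean signal above 4000, 164 lay above vehicle, with a median of 0.05. With limma's test 0 of the 46 genes passed an adjusted p of 0.05, against 0.022% of all genes, and 0 had an unadjusted p under 0.05, against 2.9% of all genes. The smallest unadjusted p was 0.167 (Rps9). Across the 34 bright genes 33 lay above vehicle, with a median of 0.09, and the 95% confidence intervals together spanned -0.30 to 0.51, or 0.815-fold to 1.42-fold. With human AHR vehicle replicate 1 left out 31 of the 46 genes were above vehicle and the median was 0.02, without human AHR TCDD replicate 2 these were 36 and 0.03, and without human AHR vehicle replicate 3 they were 40 and 0.14.

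Among the bright genes, Rps9, a small subunit protein at the mRNA entry channel, had signals of 5107, 5975 and 6226 in human AHR TCDD arrays against 4747, 4765 and 5609 in human AHR vehicle arrays. The groups overlapped through the highest vehicle array, and the log2 change was 0.19 (standard error 0.13, limma adjusted p = 1.00). Rplp0, the base of the stalk that recruits elongation factors, had signals of 10921, 14424 and 14501 in human AHR TCDD arrays against 10925, 11648 and 12423 in human AHR vehicle arrays. Its lowest TCDD array lay beside the lowest vehicle array, and the change was 0.18 (standard error 0.15). Its stalk partner Rplp2 stood at 0.09, Rpsa, which also occurs at the cell surface as a laminin receptor, at 0.10, and Rps3, which has a second role in DNA repair, at 0.13. Rpl11, which binds and inhibits Mdm2 when ribosome assembly fails, stood at 0.09. Rpl13a, known as a translational silencer of interferon-induced mRNAs, stood at 0.08, and Rps19, mutated in Diamond-Blackfan anaemia, at 0.06.

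The 3 largest changes by size in human AHR cells, those of Rps27, Rpl14 (described below) and Rpl39, were at dim probe sets. Rps27 had signals of 160.5, 153 and 126 in human AHR TCDD arrays against 140, 187 and 322 in human AHR vehicle arrays. The vehicle array at 322 set the vehicle mean, and the log2 change of -0.45 had a standard error of 0.35. Its p53-induced paralog Rps27l, a bright gene, had 6900, 7057 and 6622 against 7290, 6355 and 6884, a change of 0.01. Rpl37 had 1824, 1282 and 864 against 1054, 1695 and 1634, with full overlap and a change of -0.17 (standard error 0.23). Rpl39, a short protein of the exit tunnel, had 116, 174 and 112 against 55.1, 132 and 181 (0.21, standard error 0.36), and its paralog Rpl39l stood at -0.10 with every array at or below 16.3.

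Rpl14 and Rpl7 were the 2 of 46 genes (named after their values were seen) whose 3 human AHR TCDD arrays all lay above the 3 human AHR vehicle arrays, while 3.34% of all genes showed this. In the other direction the count was 0 of 46, against 3.87% of all genes. Rpl14 had signals of 94, 78.3 and 87.9 against 77.8, 62.6 and 68.3, a log2 change of 0.26 (standard error 0.21, limma adjusted p = 1.00), and Rpl7 had 7809, 8721 and 7707 against 7244, 7665 and 7514, a change of 0.11 (standard error 0.13). For both genes the gap between the groups was under 1% of the signal.

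The shared probe sets of the dim genes did not repeat these large values. Across the 9 brightest shared probe sets, all 9 lay above vehicle in human AHR cells, with a median of 0.08 and a range from 0.01 to 0.12. Rps27 was -0.45 at its own probe set and 0.07 at the shared one, Rpl14 was 0.26 and 0.01, Rpl39 was 0.21 and 0.11, and Rpl37 was -0.17 and 0.07. Over the whole array, 75 of the 110 probe sets that list a symbol of the rule beside others had a mean signal above 4000. Of these 70 lay above vehicle, with a median of 0.08.

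The second question was what TCDD did in cells with the mouse receptor. In wild type cells 33 of the 46 genes were above their vehicle mean, and the median log2 change was 0.03. Over all genes 55.7% were above it, with a median of 0.03, and of the 216 other genes above 4000, 137 were, with a median of 0.04. By limma's test 0 of 46 passed, against 0.0055% of all genes, and 0 had an unadjusted p under 0.05, against 4.18%. The count of genes whose arrays did not overlap was 0 above vehicle (6.18% of all genes) and 0 below it (2.82% of all genes). Among the 34 bright genes 27 lay above vehicle, with a median of 0.04 and 95% intervals that together spanned -0.37 to 0.46, or 0.773-fold to 1.37-fold. With both replicate 2 arrays left out, 34 of the 46 lay above vehicle and the median was 0.04, and for the bright genes these were 28 of 34 and 0.05. For the 216 other genes above 4000 they were then 137 and 0.06. The direction turned without wild type TCDD replicate 3 (10 of 46, median -0.06) or without wild type vehicle replicate 2 alone (17 of 46, median -0.02).

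Rpl39 had the largest change in wild type cells, with signals of 158, 177 and 94.3 in wild type TCDD arrays against 65.8, 109 and 141 in wild type vehicle arrays. The groups overlapped, and the log2 change of 0.40 had a standard error of 0.36 (limma adjusted p = 0.966). Rpl39 is X-linked, and its signals of 177 and 109 on the 2 Xist-high arrays were the highest of the TCDD arrays and the middle of the vehicle arrays. The X-linked Rps4x, bright on all arrays, read 8709 and 8847 on those 2 arrays, the lowest of each group. Rps2 changed by 0.13, Rplp2 by 0.12 and Rplp0 by 0.11. On the other side stood Rpl14 at -0.24, with 56.5, 89.2 and 66.7 in wild type TCDD arrays against 67.3, 83.7 and 109.5 in wild type vehicle arrays, then Rpl39l at -0.18 and Rps27 at -0.14, all at dim probe sets. Rps19 was the lowest of the bright genes at -0.11.

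**Figure D2:**
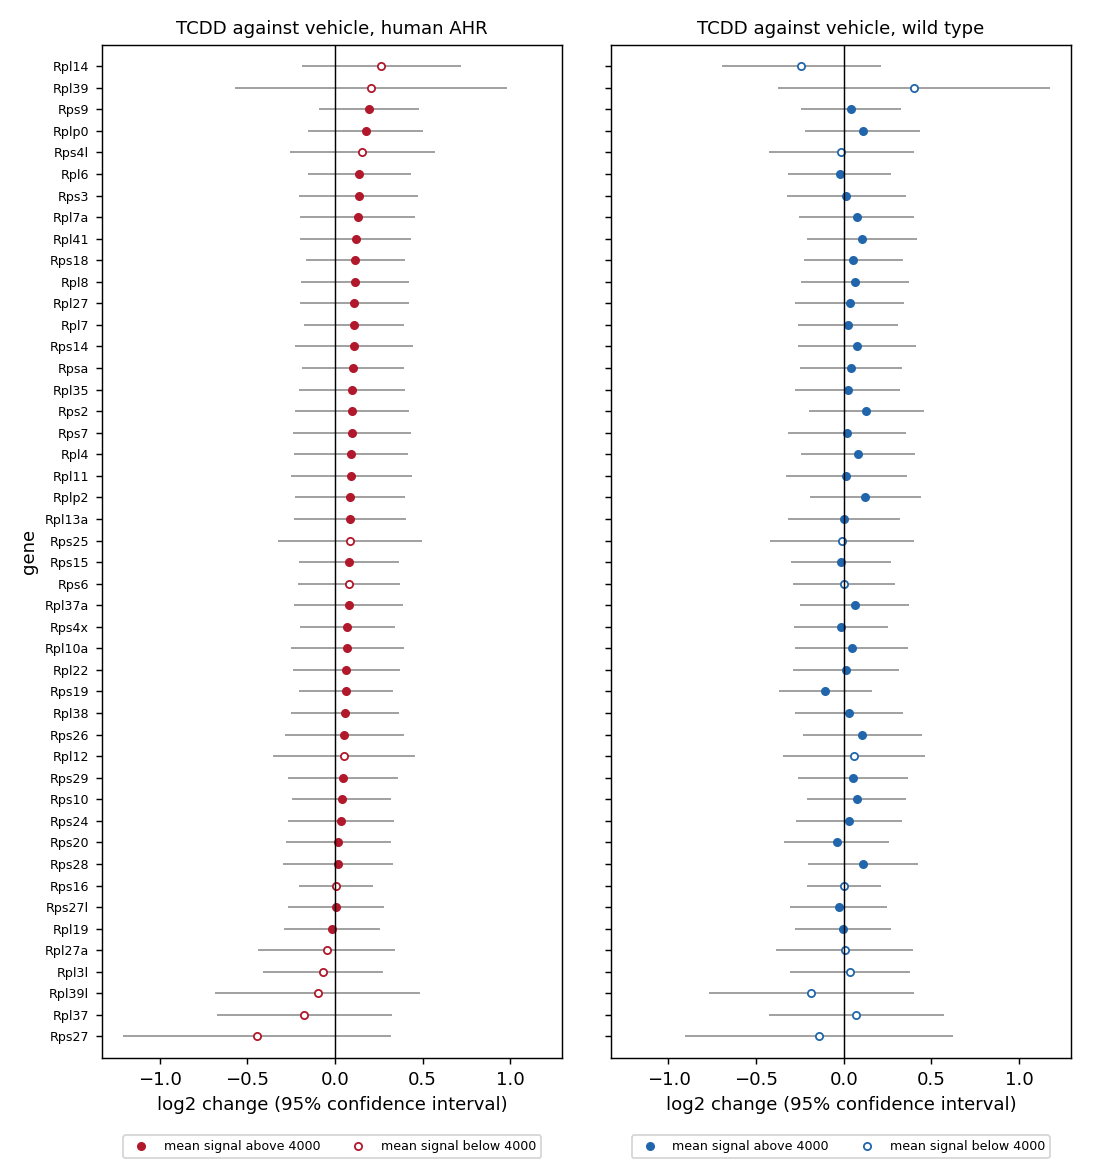
Log2 change of TCDD against vehicle (horizontal axis) with its 95% confidence interval for each of the 46 genes (vertical axis, ordered by the change in human AHR cells), in human AHR cells on the left and wild type cells on the right. All intervals cross 0. Filled points, the 34 genes with a mean signal above 4000, lie between -0.01 and 0.19 on the left and between -0.11 and 0.13 on the right, and the widest intervals belong to dim genes such as Rps27 and Rpl39.

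The third comparison asked whether the 2 receptors differed in their TCDD effect, as an interaction term. The difference, human AHR minus wild type, was positive for 33 of 46 genes, with a median of 0.05 on the log2 scale and a range from -0.30 (Rps27) to 0.51 (Rpl14). Over all genes the median was -0.04 and 44.1% were positive, and among the 216 other genes above 4000 the median was 0.01 and 119 were positive. In limma's test 0 of 46 passed, against 0% of all genes, and 0 had an unadjusted p under 0.05, against 3.14% of all genes. Rpl14, with opposite signs in the 2 genotypes, had the smallest p (0.112, limma adjusted p = 0.998), and its shared probe set gave a difference of 0.05. Rpl37 stood at -0.25 and Rpl39 at -0.19, while Rps4l and Rps19 both stood at 0.17. Rps4l had signals of 1643, 1619 and 1151 in human AHR TCDD arrays against 1517, 1376 and 1056 in human AHR vehicle arrays, a change of 0.16, and its counterpart Rps4x changed by 0.07. With both wild type replicate 2 arrays left out the median difference was 0.04. For the 34 bright genes 27 differences were positive with all arrays and 24 without these 2, with a median of 0.05 both times. For the 216 other genes above 4000, 111 were positive without these 2, with a median of 0.0038. The median difference of the 46 genes turned to -0.01 without human AHR vehicle replicate 1 and -0.0012 without human AHR TCDD replicate 2. It was -0.02 without wild type TCDD replicate 2 and -0.01 without wild type vehicle replicate 3. For the 34 bright genes the intervals of the difference together spanned -0.54 to 0.60, so a difference of up to 1.52-fold lies within them.

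The last comparisons set the genotypes side by side, first under vehicle. Of the 46 genes 36 lay higher in human AHR vehicle arrays, with a median of 0.04 on the log2 scale, against 55.1% of all genes and a median of 0.03. Of the 216 other genes above 4000, 136 lay higher, with a median of 0.04, and without the 2 Xist-high arrays 93 did, with a median of -0.02. In limma's test 0 of 46 passed (0.0055% of all genes), 0 had an unadjusted p under 0.05 (4.23%), and 0 had arrays that did not overlap, higher (6.27%) or lower (4.41%). The range ran from -0.31 (Rpl39l) through -0.25 (Rpl14) and -0.19 (Rpl27a) to 0.18 (Rpl3l), 0.37 (Rpl37) and 0.48 (Rps27). All of these are dim probe sets. Without the 2 Xist-high arrays 16 of 46 lay higher in human AHR cells and the median was -0.02. Without human AHR vehicle replicate 3 these were 17 of 46 and -0.02, so the direction rested on single arrays.

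Under TCDD 41 of the 46 genes lay higher in human AHR cells, with a median of 0.09, against 47.6% of all genes and a median of -0.01. Among the 216 other genes above 4000 these were 162 and 0.05, and without the 2 Xist-high arrays 113 and 0.0047. The limma test passed 0 of 46 (0% of all genes) and 0 had an unadjusted p under 0.05 (4.11%). Rps19 was the 1 gene whose arrays did not overlap, with 5919, 5985 and 6342 in human AHR TCDD arrays against 5466, 5520 and 5229 in wild type TCDD arrays (0.17, standard error 0.12). Of all genes 3.23% showed such a separation upwards and 4.86% downwards, and downwards the count among the 46 was 0. Rpl14 (0.26), Rps27 (0.18) and Rps3 (0.17) lay highest and Rpl27a (-0.24), Rpl39l (-0.22) and Rps6 (-0.07) lowest. Without the 2 Xist-high arrays 28 lay higher and the median was 0.02, and without human AHR TCDD replicate 2 these were 33 and 0.03.

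Other measures also differed between the genotypes. Of 12 Kupffer cell and macrophage markers 11 lay higher in human AHR cells, by a median of 1.27 under vehicle and 1.05 under TCDD, and 11 did, by 1.25 and 1.05, without the Xist-high arrays. Of these 0 passed limma's test, and 7 and 5 had an unadjusted p under 0.05, against 4.23% and 4.11% of all genes. Their summed signal ran from 2973 to 5694 in human AHR TCDD arrays, 3180 to 6164 in human AHR vehicle arrays, 3274 to 5098 in wild type TCDD arrays and 3178 to 4278 in wild type vehicle arrays. It came mostly from Cd68 and Cd14, while the defining marker Clec4f averaged 23.6 and Timd4 averaged 2.2. The Gapdh 3′ to 5′ ratio, a sign of RNA integrity, was 0.830 to 0.840 in human AHR vehicle arrays and 0.798 to 0.816 in wild type vehicle arrays, which did not overlap. Under TCDD it was 0.799 to 0.841 in human AHR and 0.804 to 0.839 in wild type arrays, which did. The Actb ratio overlapped under both, at 1.39 to 1.56 in human AHR and 1.33 to 1.43 in wild type vehicle arrays, and 1.47 to 1.53 in human AHR and 1.39 to 1.52 in wild type TCDD arrays. Their part in the genotype values was not tested. The comparisons share groups, so their counts are not independent of one another.

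A shift shared by the bright genes lay within the groups. Deviations of single arrays from their group mean were shared by the 34 bright genes, with a mean pairwise correlation of 0.81 over the 12 arrays. The figure was -0.01 for the 12 dim genes, 0.28 for the 216 other genes with a mean signal above 4000 and 0.01 for all genes. These are descriptions over genes that share arrays. Wild type TCDD replicate 3 held the highest of the 12 signals for 16 of the 34 genes and human AHR TCDD replicate 2 for 10, while wild type vehicle replicate 2 held the lowest for 15 and wild type TCDD replicate 2 for 13. The mean signal of the 34 genes was 8906, 10303 and 9849 in human AHR TCDD arrays, 8417, 9025 and 9965 in human AHR vehicle arrays, 8637, 8351 and 10529 in wild type TCDD arrays and 8761, 8149 and 9684 in wild type vehicle arrays. Replicates of 1 group thus differed by more than the groups did.

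This shared shift followed the upper end of each array. In each of the 4 groups the array with the highest mean of the 34 genes also had the highest 99th percentile of signal over all genes, and the array with the lowest mean had the lowest. The 99th percentile ran from 4773 to 5266 in human AHR TCDD arrays, 4678 to 5025 in human AHR vehicle arrays, 4624 to 5611 in wild type TCDD arrays and 4640 to 5058 in wild type vehicle arrays. The 34 genes belong to the 250 genes above 4000 and so help to set that percentile.

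**Figure D3:**
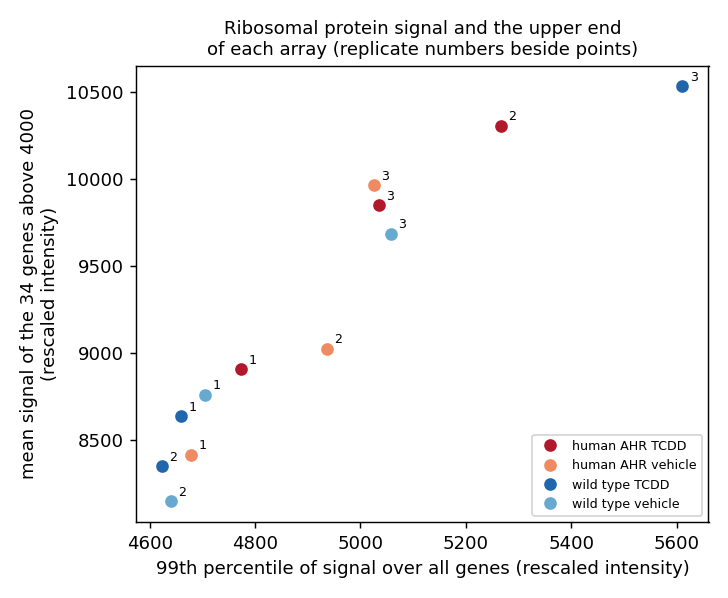
Mean signal of the 34 ribosomal protein genes above 4000 (vertical axis) against the 99th percentile of signal over all genes (horizontal axis), 1 point per array, coloured by group and numbered by replicate. Within each group the 2 measures put the same array highest and the same array lowest, from 8149 in wild type vehicle replicate 2 to 10529 in wild type TCDD replicate 3.

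The size of the small shifts depended on the normalization. With each array at a trimmed mean of 150, the mean log2 value of the 46 genes was 11.61 ± 0.07 in human AHR TCDD, 11.54 ± 0.11 in human AHR vehicle, 11.54 ± 0.15 in wild type TCDD and 11.51 ± 0.10 in wild type vehicle arrays (SD, n = 3 each), and it ranged over 0.29 across arrays. Quantile normalization, which gives every array the same distribution, narrowed that range to 0.07, with group means of 11.57 ± 0.02, 11.55 ± 0.01, 11.54 ± 0.04 and 11.56 ± 0.02 in the same order of groups. The mean pairwise correlation of the 34 bright genes then became 0.03, and the median residual SD of a bright gene became 0.07, against 0.15 before. Giving the arrays the same median over all genes widened the range to 0.40.

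The median change of the 46 genes moved with these choices. In human AHR cells it was 0.08 with the trimmed mean, 0.02 after quantile normalization (31 of 46 above vehicle) and 0.14 with the same median (42 of 46). In wild type cells it was 0.03, -0.01 (20 of 46) and -0.03 (15 of 46), so its direction flipped. The genotype difference under vehicle also flipped, from 0.04 to -0.02 (18 of 46) and -0.01 (19 of 46), while under TCDD it was 0.09, 0.03 (35 of 46) and 0.15 (41 of 46). The difference of the TCDD effects was 0.05, 0.04 (32 of 46) and 0.16 (43 of 46), where the same median also shifted the median of all genes to 0.07, against -0.04. Under each of these 3 scalings 0 of 46 genes passed in every comparison. On the scale as deposited, where the 3 wild type TCDD arrays had a trimmed mean of 500 and the other 9 of 150, 44 of 46 passed for TCDD in wild type cells with a median of 1.76, and 14795 of all genes passed with them.

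**Figure D4:**
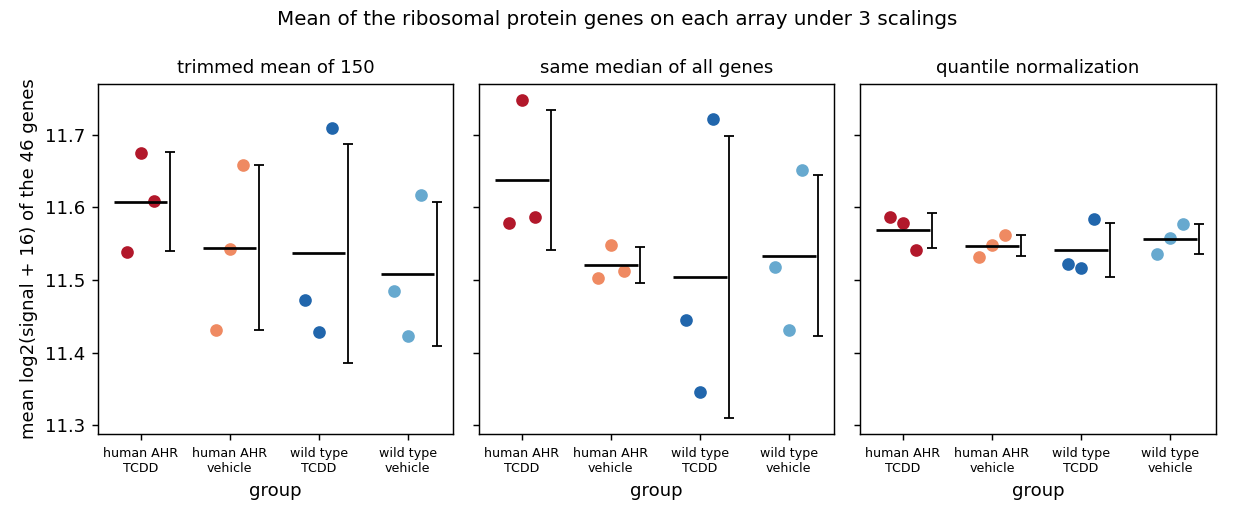
Mean log2(signal + 16) of the 46 genes on each array (points), with the group mean (line) and SD (bar, n = 3), under 3 scalings on the same vertical axis. The arrays spread over 0.29 with a trimmed mean of 150, 0.40 with the same median of all genes and 0.07 after quantile normalization.

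The subunits were also described separately. Among the bright genes in human AHR cells, 16 of 17 large subunit genes lay above vehicle with a median of 0.09, and 17 of 17 small subunit genes with a median of 0.07. In wild type cells these were 15 of 17 at 0.03 and 12 of 17 at 0.04. Several probe sets of the same gene mostly gave close values: in the 16 bright genes with more than 1 bright probe set of their own, the median span of the TCDD change was 0.04 in both genotypes. Rps10 was the widest, with a span of 0.54 in human AHR and 0.30 in wild type cells.

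Promoter sequence was read for bright and dim genes alike, using RefSeq windows on build GRCm38.p6 from 250 bases before to 50 bases after each transcript start. Of the 46 genes 40 had a window, and Rpl7, Rpl8, Rps14, Rps20, Rps29 and Rps4l did not. The letters CGGAAG, the core of sites of ETS-family factors, occurred on either strand in 29 of the 40 genes (72.5%) and in 18.8% of 27025 genes. The pyrimidine run CTTTCC on the transcript strand occurred in 17 of 40 (42.5%), against 16% of all genes. The E-box CACGTG, on both strands alike, occurred in 4 (10%) against 8.09%, and TATAAA on the transcript strand in 4 (10%) against 9.77%. The 6 promoters that held this core at 2 places between 70 bases before and 10 bases after the start are shown, each 5′ to 3′ along its transcript, with CGGAAG or its reverse complement CTTCCG in capitals.
Rpl37 (chr15:5116543-5116622, plus strand): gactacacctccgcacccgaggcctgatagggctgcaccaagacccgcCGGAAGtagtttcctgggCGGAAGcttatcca
Rpl37a (chr1:72711190-72711269, plus strand): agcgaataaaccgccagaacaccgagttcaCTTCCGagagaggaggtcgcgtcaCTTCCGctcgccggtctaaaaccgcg
Rpl38 (chr11:114668510-114668589, plus strand): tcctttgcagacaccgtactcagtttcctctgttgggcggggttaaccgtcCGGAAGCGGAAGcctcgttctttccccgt
Rpl41 (chr10:128549159-128549238, minus strand): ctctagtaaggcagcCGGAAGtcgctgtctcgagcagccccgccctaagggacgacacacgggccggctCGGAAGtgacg
Rps18 (chr17:33955656-33955735, minus strand): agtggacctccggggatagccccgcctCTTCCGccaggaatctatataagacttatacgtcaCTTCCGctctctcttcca
Rps6 (chr4:86857358-86857437, minus strand): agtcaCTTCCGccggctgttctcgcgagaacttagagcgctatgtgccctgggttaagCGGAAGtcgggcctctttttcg

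The spacing of the pairs differed between these promoters, from cores side by side in Rpl38 to cores at opposite ends of the window in Rpl41 and Rps6. Of these 6 genes Rpl37a, Rpl38, Rpl41 and Rps18 belong to the 34 bright genes, while Rpl37 and Rps6 are dim. The TCDD changes of these 4 bright genes were 0.08, 0.06, 0.12 and 0.12 in human AHR cells and 0.06, 0.03, 0.11 and 0.06 in wild type cells. Rpl38 had signals of 12201, 13427 and 13668 in human AHR TCDD arrays against 11669, 12022 and 14177 in human AHR vehicle arrays. The vehicle arrays held both its lowest and its highest value.

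The core of the AHR and ARNT binding site, GCGTG on either strand, occurred in 26 of the 40 genes with a window (65%), against 35.2% of all genes. Base composition was not taken into account for any of these motifs. The longer form TTGCGTG, which contains GCGTG, occurred in 1 of 40 (2.5%), against 1.35%. That promoter was of Rpl4, a large subunit protein lining the exit tunnel, and the match, shown in capitals as its reverse complement CACGCAA, began 146 bases before the start.
Rpl4 (chr9:64173230-64173259, plus strand): ttaacacacgtCACGCAAtaatattacctt
Rpl4 had signals of 9484, 11599 and 11228 in human AHR TCDD arrays against 8950, 10107 and 11228 in human AHR vehicle arrays, and 9151, 8850 and 11758 in wild type TCDD arrays against 9597, 8594 and 9716 in wild type vehicle arrays. The arrays overlapped in both genotypes, and the log2 changes were 0.09 and 0.08 (standard error 0.15 each). The 20 bright genes with GCGTG had a median TCDD change of 0.09 in human AHR cells and 0.05 in wild type cells, and the 9 bright genes with a window without it had 0.08 and 0.01. A match of letters is a description and not a measured binding site.

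Other genes of the ribosome and its supply were described in the same fits, from lists chosen with earlier results of these data known. Of 15 measured translation factors with TOP mRNAs, 12 lay above vehicle in human AHR cells (median 0.07, and 0.01 with 8 of 15 after quantile normalization) and 13 in wild type cells (median 0.09, and 0.12 with 13 of 15 without the Xist-high arrays). Of these, 0 passed limma's test and 0 had an unadjusted p under 0.05 in either genotype. The elongation factor Eef2 stood at 0.20 in wild type cells. Of 31 ribosome biogenesis genes 22 lay above vehicle in human AHR cells and 21 in wild type cells, with medians of 0.07 and 0.08. Without the Xist-high arrays 17 did in wild type cells, with a median of 0.07. Of these, 0 passed limma's test, and 1 and 0 had an unadjusted p under 0.05, against 2.9% and 4.18% of all genes. The 1 was Fbl, the methyltransferase of box C/D snoRNPs, at 0.25 (limma adjusted p = 1.00). Of 4 measured ribosome genes outside the naming rule 4 lay above vehicle in human AHR cells and 3 in wild type cells, with or without the Xist-high arrays, with Rpl7l1 at 0.22 and -0.12. Of 12 regulators of ribosome synthesis 6 and 10 lay above vehicle (8 in wild type cells without the Xist-high arrays), with Rptor, the mTORC1 scaffold, at -0.17 and 0.31. In both of these lists 0 passed limma's test and 0 had an unadjusted p under 0.05 in either genotype.

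Mitochondrial ribosomal proteins, which are encoded in the nucleus by separate genes, were set beside the cytosolic genes. Of 76 genes 61 lay above vehicle in human AHR cells, with a median of 0.06, and 15 lay above vehicle in wild type cells, with a median of -0.11. Over all genes these shares were 46.9% and 55.7%. The difference of the TCDD effects was positive for 33 of 46 cytosolic genes, with a median of 0.05, and for 66 of 76 mitochondrial genes, with a median of 0.17. It was positive for 44.1% of all genes. In limma's test 0 of 76 passed in either genotype or for the difference. An unadjusted p under 0.05 was found for 0, 4 and 5, against 2.9%, 4.18% and 3.14% of all genes. Mrps21 stood at -0.39 and Mrpl40 at -0.30 in wild type cells (limma adjusted p = 0.966 for both), and Mrpl21 at 0.23 in human AHR cells. Between genotypes, 16 of 76 lay higher in human AHR vehicle arrays (median -0.13) and 56 of 76 in human AHR TCDD arrays (median 0.06). Of all genes 55.1% and 47.6% did. In limma's test 0 of 76 passed under either treatment. An unadjusted p under 0.05 was found for 7 under vehicle and 1 under TCDD, against 4.23% and 4.11% of all genes. Without the Xist-high arrays 16 of 76 lay above vehicle in wild type cells (median -0.12), the difference was positive for 65 (median 0.17), and 8 and 55 lay higher in human AHR cells under vehicle and TCDD (medians -0.15 and 0.05). After quantile normalization the medians of the TCDD change were 0.07 and -0.09, and with the same median of all genes they were 0.12 and -0.16, so the directions did not flip. Whether the cytosolic and mitochondrial genes differ beyond the arrays was not tested.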

How the data were processed

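Per the series' design text and the submitters' processing notes, the authors preprocessed the scans with Affymetrix software, normalised the arrays by PLIER in Affymetrix Expression Console 1.1, and tested with SAM. The deposited values are linear intensities, 1 per probe set and array, for 45101 probe sets. Their trimmed mean (2% off each end) was 150 on 9 arrays and 500 on the 3 wild type TCDD arrays, a shift of 1.74 on the log2 scale. Every array was therefore rescaled to 150 and taken as log2 of the value plus 16. Whether the deposited values are PLIER output, or were scaled to these trimmed means in another step, was not tested. The annotation of the platform listed 35877 probe sets, 34945 with 1 gene symbol and 932 with several, and 64 control probe sets were left out. The brightest single-symbol probe set stood for each of 18193 genes, and 0 pairs of arrays were identical.

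A mean for each group was fitted to all 12 arrays with limma 3.58.1 (R 4.3.3), with 8 residual degrees of freedom and eBayes moderation that follows intensity. All tests are two-sided. Adjusted p-values are Benjamini-Hochberg values over the 18193 genes, with a threshold of 0.05. Confidence intervals are 95%. A fold is the log2 change turned back to a ratio. It includes the offset of 16, which understates changes of dim genes. The fit was tested on simulated data. Arrays give no counts, and their number limits the precision. In bulk RNA, fewer cells of a type and less RNA per cell cannot be told apart.

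The members, the lists and the tests were chosen with earlier results of these data known. Named genes were any called gene, the 3 largest changes in each direction per comparison, stalk genes, paralog pairs, genes with known roles outside the ribosome and genes below the median gene. Of the other lists, up to 3 genes with the smallest p were named. Alternatives covered scaling, offset, probe set handling, a filter on the dimmest 40% of genes, the fit, a replicate block and each array left out. In human AHR cells, TCDD and vehicle arrays with the same number deviated together over all genes (r of 0.24, 0.27 and 0.19) and were taken as paired, while in wild type cells r was 0.25, 0.51 and 0.05 and the arrays were taken to share only a number. This pairing comes from the values and entered only the alternative fit with a replicate block. The main fit, which gave the p-values and intervals above, was unpaired. The labels do not say what same-numbered arrays share, while the design text gives 1 mouse for each array. Leaving out both wild type replicate 2 arrays for the other lists was chosen after seeing the data. Python 3.11.15 with matplotlib 3.10.9 drew the figures.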

Additional observations from a re-analysis of the deposited data

How the results depend on the processing

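In all 5 comparisons 0 of 46 genes passed under every setting that rescaled the arrays. Each median moved by less than the within-group SD of the array means (0.11), also with only the 34 bright genes. The medians themselves were 0.03 to 0.09, so moves below this SD could turn their sign, and some did. The settings included the same mean of the 46 genes on each array, which holds their mean change at 0. With 1 array left out in turn, the median lay between 0.02 and 0.14 for TCDD in human AHR cells, -0.06 and 0.10 for TCDD in wild type cells, -0.02 and 0.14 for their difference, -0.02 and 0.11 for the genotypes under vehicle and 0.02 and 0.18 under TCDD. With array weights the median for TCDD in wild type cells was -0.04. In the fit with a replicate block 0 of 46 passed, and the block changed no call. Every group holds each replicate number, so the block could not move the medians. They stayed at 0.08 in human AHR cells (paired arrays) and 0.03 in wild type cells. The wild type arrays were blocked by number too, and the genotype comparisons by number across genotypes, although the labels do not say what those arrays share.

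With no rescaling, 44 of 46 genes passed for TCDD in wild type cells (median 1.76, all genes 1.43), 43 for the difference of the TCDD effects (median -1.68, all genes -1.45) and 44 between the genotypes under TCDD (median -1.63, all genes -1.46). This is the 500 against 150 in the deposited trimmed means. Named genes then took the other sign. Of those below the median gene, Rpl39l stood at 0.55 for TCDD in wild type cells and -0.65 for the difference. Rps16 stood at -0.08 for the difference and -0.07 between the genotypes under TCDD, where Rpl3l stood at -0.32. The other genes that turned are listed by comparison. For TCDD in wild type cells these were Rpl14 at 1.29, Rps19 at 1.63, Rps27 at 1.46, Rps27l at 1.71, Rps4l at 1.71, Rps4x at 1.72 and Rps6 at 1.67. For the difference these were Rpl11 at -1.66, Rpl13a at -1.65, Rpl14 at -1.03, Rplp0 at -1.67, Rps19 at -1.57, Rps27l at -1.70, Rps3 at -1.61, Rps4l at -1.56, Rps4x at -1.65, Rps6 at -1.59, Rps9 at -1.58 and Rpsa at -1.68. Between the genotypes under TCDD these were Rpl11 at -1.61, Rpl13a at -1.59, Rpl14 at -1.27, Rpl37 at -1.60, Rplp0 at -1.62, Rplp2 at -1.67, Rps19 at -1.56, Rps2 at -1.67, Rps27 at -1.43, Rps27l at -1.71, Rps3 at -1.56, Rps4l at -1.67, Rps4x at -1.60, Rps9 at -1.63 and Rpsa at -1.63.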
